A study of Mus musculus with 24 samples.

Results

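The homeobox genes described here are 4 members of the Hoxa cluster (Hoxa5, Hoxa9, Hoxa10 and Hoxa11) and the 2 Msx genes of the uterus (Msx1 and Msx2). Each was measured by 1 probe set, chosen because the platform annotation names that gene and no other, so the members are 6 of 12422 probe sets tested, or 6 of 8251 genes that had a probe set of their own. RNA was hybridized to Affymetrix mouse arrays from whole uteri of mice without the progesterone receptor (PRKO) and of wild-type (WT) mice, all ovariectomized at 6 weeks of age and injected later with progesterone (P4, 1 mg per mouse) in sesame oil or with sesame oil alone (vehicle). Uteri were taken 4 h after a single injection, or, in animals injected 4 times at 12 h intervals, 40 h after the first and 4 h after the last injection. The 8 groups, each of 3 arrays, were therefore PRKO P4, PRKO vehicle, WT P4 and WT vehicle at each time. Both genotypes lacked ovaries, the labels name no allele or strain beyond PRKO, and a change in whole uterus may come from any of its cell types. Each pool held RNA of 5 mice. Since nothing states that replicate arrays came from different pools, errors and p-values below measure the spread between arrays, which may be technical.

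Homeobox genes encode transcription factors that bind DNA through a homeodomain. Genes toward the Hoxa13 end of the Hoxa cluster pattern the female reproductive tract in the embryo, and Hoxa10 and Hoxa11 stay active in the adult uterus, where mouse females lacking either are subfertile or infertile because stromal cells fail to support implantation and decidualization. Msx1 and Msx2 encode repressors of the muscle segment homeobox family, which in the mouse uterus act in the epithelium and stroma before the embryo attaches, and loss of both blocks implantation. P4 acts mainly through the progesterone receptor, a ligand-activated transcription factor encoded by Pgr.

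Values are signal intensities after each array was scaled to the same trimmed mean. A difference is a log2 fold change (log2 of scaled signal plus 32) ± its standard error from limma, fitted on all 24 arrays, and the words rose and fell are kept for genes with a Benjamini-Hochberg adjusted p under 0.05 among the 12422 probe sets. Intervals are 95% confidence intervals of a single gene. Since probe sets differ in how brightly they hybridize, levels were compared between groups and not between genes. The 4 P4 comparisons, the genotype difference of the P4 effect, PRKO against WT in vehicle uteri and the time difference of the WT effect made 9 comparisons. PRKO against WT under P4, 40 h against 4 h in vehicle uteri and all comparisons that pool times, genotypes or treatments were added after the values were seen, so their p-values come from data that had prompted the question.

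Signals of the series as a whole set the following limits. Array medians of the deposited signal lay between 323.2 and 342.6. The Gapdh control's 3' over 5' ratio, which rises as RNA is degraded, was 3.67 on replicate 2 of WT vehicle at 4 h and 3.25 on replicate 2 of WT P4 at 4 h, against 1.23 to 1.86 on the other 22 arrays. With vehicle, Pgr signal averaged 126 ± 4.48 in PRKO and 144.7 ± 4.50 in WT uteri at 4 h, then 129 ± 9.59 in PRKO and 147 ± 16.1 in WT uteri at 40 h (SD, n = 3 arrays each). The sources used here do not say whether that probe set lies in the deleted part of the gene, and these values therefore do not check the labels. Adipose markers had a lower summed signal in WT P4 uteri at 40 h (6297 to 10644 over 10 of 12 listed genes) than in WT vehicle uteri (14618 to 16729).

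Hoxa11 rose with P4 in WT uteri at 40 h. The 250 bases upstream of its RefSeq start and those upstream of the outer of 2 starts of its neighbour Hoxa10 are shown because these were the members whose signal was higher with P4. Capitals mark TGTNCT, or its reverse complement AGNACA, the half-site form bound by the progesterone receptor and related steroid receptors. Sequences are from RefSeq, GRCm38.p6, minus strand, read 5′ to 3′ toward the gene, at chr6:52245811-52246060 for Hoxa11 and chr6:52240855-52241104 for Hoxa10.
Hoxa11: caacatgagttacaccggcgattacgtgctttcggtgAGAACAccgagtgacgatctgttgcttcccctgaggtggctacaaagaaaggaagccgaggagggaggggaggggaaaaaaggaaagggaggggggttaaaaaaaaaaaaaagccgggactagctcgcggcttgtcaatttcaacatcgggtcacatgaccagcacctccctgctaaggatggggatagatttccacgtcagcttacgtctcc
Hoxa10: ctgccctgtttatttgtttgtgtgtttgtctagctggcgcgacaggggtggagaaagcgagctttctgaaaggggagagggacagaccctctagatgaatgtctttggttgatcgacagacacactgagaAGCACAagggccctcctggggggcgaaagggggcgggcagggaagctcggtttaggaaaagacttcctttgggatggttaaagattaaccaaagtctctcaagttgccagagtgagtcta
The match lies 208 bases upstream of the Hoxa11 start and 115 bases upstream of the Hoxa10 start, and no match overlaps another. Of 32851 such windows in the mouse table, 44.7% held at least 1 match on either strand, so holding one is common. The inner Hoxa10 start and Hoxa5 had none in their windows, and Hoxa9, Msx1 and Msx2 had 1 each. The motif was read from letters alone, and binding was not measured in these data.

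At 40 h Hoxa11 signal was 2225, 2229.7 and 2352 in WT P4 uteri, against 1330.1, 1371 and 1590.3 in WT vehicle uteri. All 3 P4 arrays lay above all 3 vehicle arrays, as for 9.76% of probe sets, with means of 2269 ± 71.9 and 1430.4 ± 140 (SD, n = 3 each). The log2 fold change was 0.66 ± 0.14 (95% interval 0.36 to 0.95), with an adjusted p of 0.0182. Hoxa11 was the 1 member of 6 that passed in this comparison, in which 191 probe sets, or 1.54% of those tested, passed in either direction. Leaving out any array but replicate 3 of WT vehicle lost the call, at adjusted p of 0.0587 to 0.0790, while the log2 fold change stayed between 0.61 and 0.73 over all 6 removals.

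At 40 h the summed signals of stroma and smooth muscle markers were also higher with P4 in WT uteri. The summed signal of 12 of 12 stroma markers was 33612 to 38326 in WT P4 uteri and 25730 to 32251 in WT vehicle uteri at 40 h, and that of 9 of 10 smooth muscle markers was 43408 to 46778 and 37800.5 to 39608. None of the listed markers was at 0 on any array. Of the stroma markers, 3 rose (Col1a1 by 0.78, Col1a2 by 0.79 and Col3a1 by 0.91), all of them collagen chains. Only 7 of the 12 stroma markers had a positive change, and a sum weighs bright genes most. All 9 smooth muscle markers had a positive change, and none of them passed. With the adipose score of each array as a covariate, the Hoxa11 change was 0.43 ± 0.25 with an adjusted p of 0.999, and 0 of the 12422 probe sets passed. Whether the makeup of the tissue had a part in the Hoxa11 change was not tested, and in these bulk samples more cells of a type and more RNA per cell cannot be told apart.

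At 4 h the Hoxa11 change in WT uteri was of similar size but more scattered. Signal was 2494, 3314 and 2596 in WT P4 uteri, against 1416, 2189 and 2395 in WT vehicle uteri. The groups did not overlap, as for 3.65% of probe sets in that direction, but the highest vehicle array came close to the lowest P4 array. The log2 fold change was 0.50 ± 0.14, with an adjusted p of 0.164. With the replicate number as a block, since same-numbered arrays of this comparison varied together, the same change passed at an adjusted p of 0.0236. None of the 6 members passed without the block, against 0.708% of all probe sets. With the block 128 of the 12422 probe sets passed, against 88 without it. Leaving out replicate 1 of WT vehicle gave 0.28, replicate 3 gave 0.65, and both arrays of high Gapdh ratio gave 0.46, with adjusted p of 0.840, 0.0379 and 0.606. The stroma sums at this time were 25658 to 28480 in WT P4 and 26310 to 30174 in WT vehicle uteri. The 40 h and 4 h effects in WT uteri differed by 0.15 (interval −0.27 to 0.57), and no member passed in that comparison, against 0.475% of probe sets.

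Hoxa11 signal was also higher with P4 in uteri without the receptor, without passing the test. At 4 h it was 1834, 2031 and 2062 in PRKO P4 uteri, against 1500.2, 1729.6 and 1748 in PRKO vehicle uteri. At 40 h it was 1567, 1820.0 and 1993 in PRKO P4 uteri, against 1384, 1361 and 1376 in PRKO vehicle uteri. At neither time did the P4 and vehicle arrays overlap, where 1.63% of all probe sets at 4 h and 5.88% at 40 h were higher with P4 in the same way. The log2 fold changes were 0.25 ± 0.14 (interval −0.05 to 0.55) at 4 h and 0.37 ± 0.14 (interval 0.07 to 0.67) at 40 h, with adjusted p of 1.00 and 0.703. limma called 0 probe sets in either PRKO comparison, 0% of those tested, with 236 at 4 h and 831 at 40 h under an unadjusted p of 0.05. At 40 h the stroma sum was 30871 to 32527 in PRKO P4 and 28429 to 29866 in PRKO vehicle uteri.

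Whether the Hoxa11 effect depended on the receptor was not settled at this precision. The PRKO effect minus the WT effect was −0.25 ± 0.20 (interval −0.67 to 0.17) at 4 h and −0.29 ± 0.20 (interval −0.71 to 0.13) at 40 h, with adjusted p of 1.00 and 0.696. Both intervals include no difference and also include a difference as large as the whole WT effect. No member passed in either comparison, in which 0.0966% of probe sets passed at 4 h and 0.105% at 40 h. With the times pooled, Hoxa11 changed by 0.31 ± 0.10 in PRKO uteri (interval 0.10 to 0.52, adjusted p 0.944) and by 0.58 ± 0.10 in WT uteri (interval 0.37 to 0.79, adjusted p 0.00292). The pooled PRKO effect minus the pooled WT effect was −0.27 (interval −0.57 to 0.03, adjusted p 0.597). Of all probe sets, 0% passed in the pooled PRKO comparison, 1.31% in the pooled WT comparison and 0.225% in the difference of the 2 effects, and Hoxa11 in WT uteri was the only member call among these 3 comparisons.

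Over both genotypes and times together, Hoxa11 was 0.45 ± 0.07 higher with P4 (adjusted p 0.00337), and each of the 24 removals of 1 array kept it between 0.39 and 0.48 and past the test. It was 1 of 73 probe sets, 0.588%, that passed. Adding the adipose covariate gave a value of 0.37 and an adjusted p of 0.756, in a fit where 0 of the 12422 probe sets passed. Hoxa11 was the only probe set of the 12422 (0.00805%) with P4 arrays above vehicle arrays without overlap in all 4 pairs of genotype and time.

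**Figure D1:**
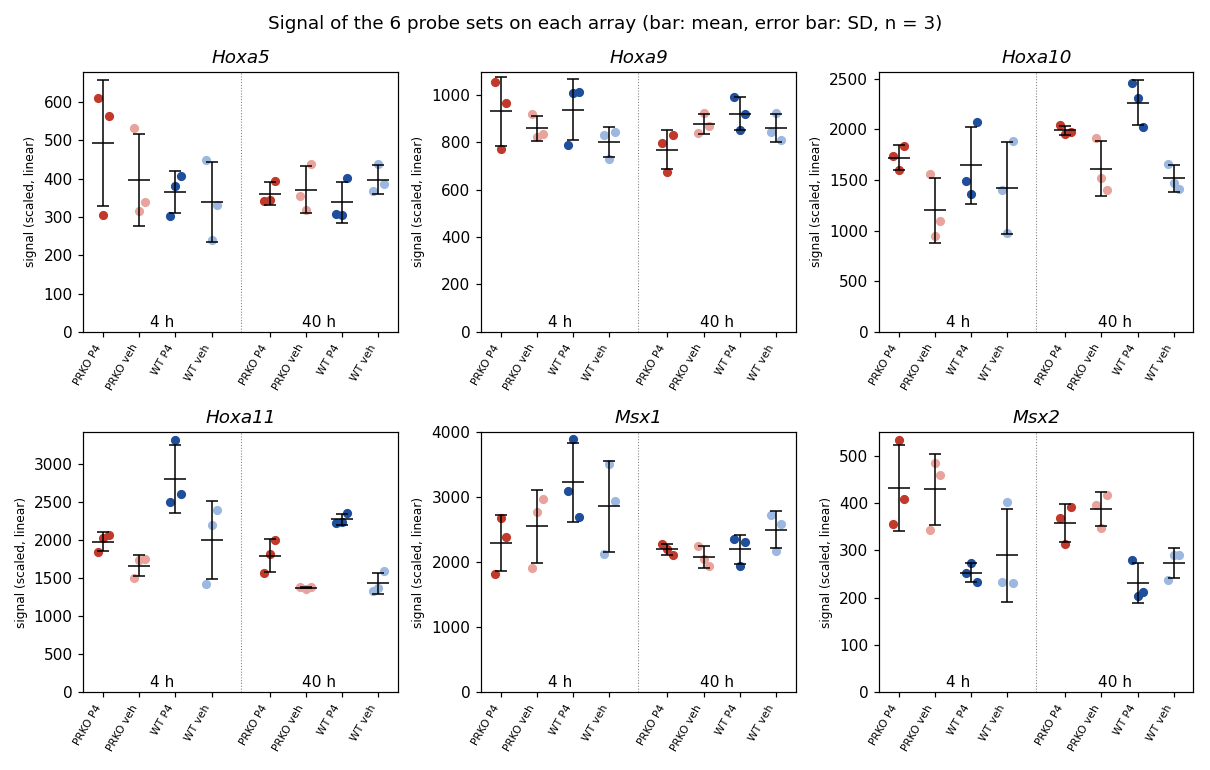
Scaled signal (linear scale) of the 6 probe sets on each of the 24 arrays, by group (points), with the group mean (bar) and SD (error bar, n = 3). Hoxa11 lies higher in the P4 than in the vehicle group of every genotype and time, and the mean of Msx2 is higher in each PRKO group than in any WT group.

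Hoxa10, the neighbour of Hoxa11, was higher with P4 in all 4 pairs of groups on average but passed in none of the 9 comparisons. At 40 h its signal was 2459, 2315 and 2019 in WT P4 uteri, against 1663, 1475 and 1411 in WT vehicle uteri. In PRKO uteri at 40 h it was 2043, 1952 and 1979 with P4, against 1919.8, 1520.3 and 1400.3 with vehicle. In neither genotype did the groups overlap, as for 5.88% of probe sets higher with P4 in PRKO and 9.76% in WT uteri, and replicate 1 of PRKO vehicle came closest to the P4 arrays. The log2 fold changes at 40 h were 0.57 ± 0.19 in WT (adjusted p 0.180) and 0.31 ± 0.19 in PRKO uteri (adjusted p 0.703). The WT change passed with only the arrays of 40 h in the fit, whose spread was smaller, at an adjusted p of 0.0131, a fit in which 539 of the 12422 probe sets passed, against 191 with all arrays.

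At 4 h the order of genotypes was the other way for Hoxa10. Its signal was 1737, 1596 and 1834 in PRKO P4 uteri, against 1563, 949.7 and 1097 in PRKO vehicle uteri. In WT uteri it was 1492, 1366 and 2076 with P4, against 1406, 979 and 1888 with vehicle. The PRKO groups did not overlap, as for 1.63% of probe sets in that direction, and the WT groups did, where replicate 2, of high Gapdh ratio, was the lowest array of both WT groups. The log2 fold changes were 0.53 ± 0.19 in PRKO (adjusted p 1.00) and 0.23 ± 0.19 in WT uteri (adjusted p 0.983), and their difference was 0.31 (interval −0.26 to 0.87). Without both arrays of high Gapdh ratio the WT change was 0.11 and the difference 0.43. Pooled over times, the PRKO and WT effects on Hoxa10 were 0.42 ± 0.14 and 0.40 ± 0.14, and differed by 0.02 (interval −0.38 to 0.43). Over all arrays the P4 difference was 0.41 ± 0.10, with an adjusted p of 0.0556. Hoxa10 was among 19 probe sets, 0.153%, with P4 above vehicle without overlap in at least 3 of the 4 pairs.

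The remaining Hoxa members showed no change with P4 that passed. Hoxa9, which neighbours Hoxa10 in the cluster, ran from 676 to 1056 over all arrays. At 40 h its signal was 798, 676 and 830.3 in PRKO P4 uteri, against 841, 922 and 867 in PRKO vehicle uteri. These groups did not overlap, but the difference was −0.19 ± 0.11 with an adjusted p of 0.703, and 16.4% of all probe sets were lower with P4 without overlap in that comparison. In WT uteri the changes of Hoxa9 were 0.21 ± 0.11 at 4 h and 0.10 ± 0.11 at 40 h, and neither passed. Hoxa5, from the middle of the cluster, varied most between arrays of a group at 4 h, with 610.4, 305 and 564 in PRKO P4 uteri and 534, 315 and 340.0 in PRKO vehicle uteri. Its changes with P4 lay between −0.22 and 0.28 over the 4 comparisons, with standard errors of 0.22.

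**Figure D2:**
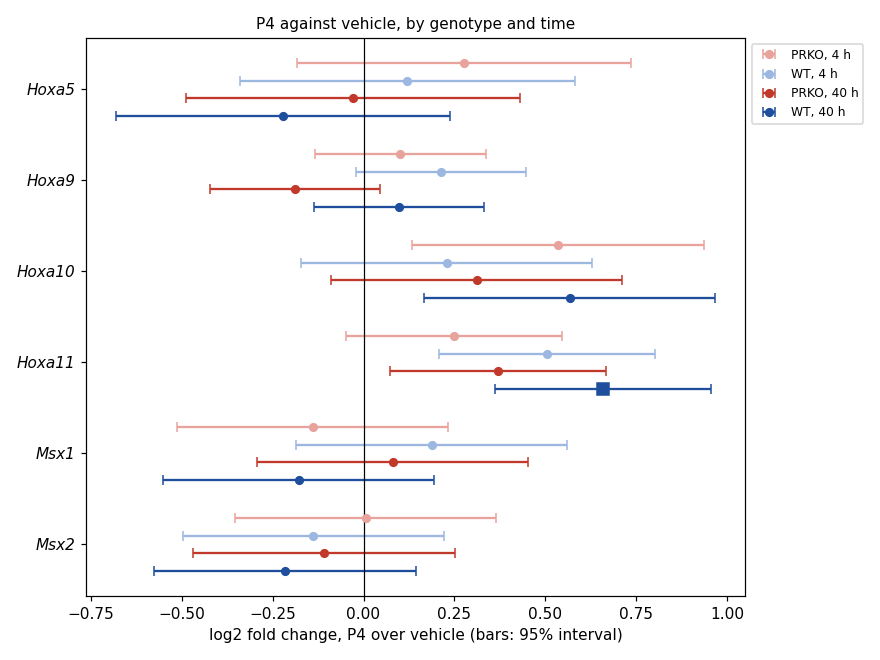
Log2 fold change of P4 against vehicle for each of the 6 genes in PRKO and WT uteri at 4 h and 40 h, with 95% confidence intervals from limma. Large squares mark an adjusted p under 0.05, which Hoxa11 reached in WT uteri at 40 h (0.66), and every Hoxa10 and Hoxa11 estimate lies above 0.

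None of the other 27 Hox genes measured had a P4 effect as high as that of Hoxa10 or Hoxa11 in the same genotype and time. They were 6 Hoxa genes besides the members and 21 of 28 Hoxb, Hoxc and Hoxd genes. None of the 27 passed in any of the 9 comparisons. At 40 h their log2 fold changes lay between −0.31 (Hoxc9) and 0.16 (Hoxd11) in PRKO uteri and between −0.23 (Hoxc8) and 0.30 (Hoxd11) in WT uteri. At 4 h the ranges were −0.22 to 0.09 in PRKO and −0.15 to 0.22 in WT uteri. Over the 6 other Hoxa genes the median change at 40 h was −0.12 in PRKO and −0.00285 in WT uteri, beside −0.04 and 0.000798 over all probe sets. Within the cluster, the map of effects at 40 h places the 2 high values side by side, with Hoxa9 on one side and Hoxa13 on the other. The members themselves stood less apart at 4 h. In PRKO uteri at 4 h Hoxa5, at 0.28, was above Hoxa11, at 0.25. In WT uteri at 4 h Hoxa9, at 0.21, was near Hoxa10, at 0.23 ± 0.19. Hoxd1, the highest of the 27 other genes there, was at 0.22 ± 0.11.

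**Figure D3:**
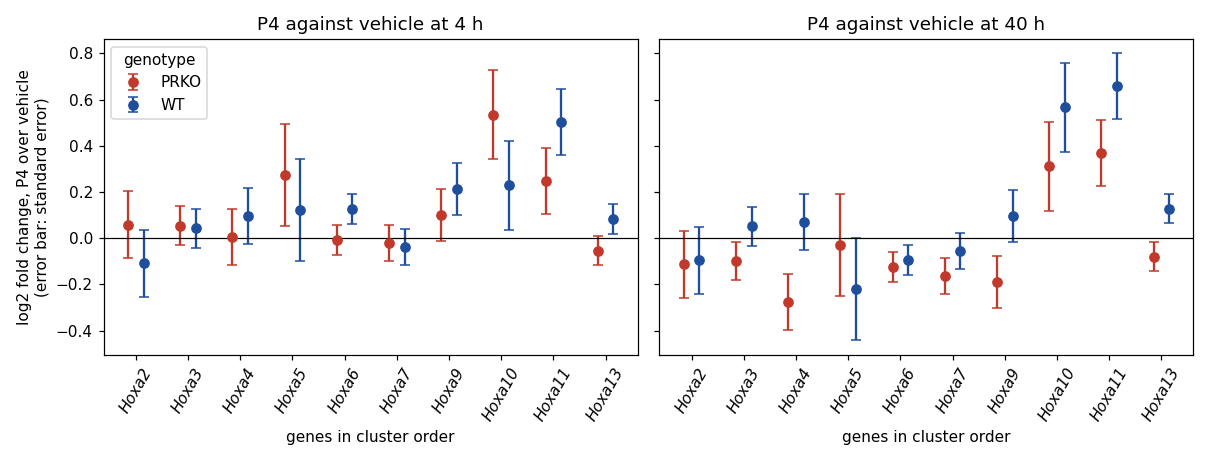
Log2 fold change with P4 of the measured Hoxa genes in their order along the cluster, in PRKO and WT uteri at 4 h and 40 h, with standard errors. Hoxa10 and Hoxa11 stand next to each other at 0.57 and 0.66 in WT uteri at 40 h, above the other Hoxa genes plotted.

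Msx2 signal was higher in PRKO than in WT uteri. The 250 bases upstream of its RefSeq start (GRCm38.p6, minus strand, chr13:53472781-53473030) are shown because it was the member with the widest genotype difference. Capitals mark the TGTNCT or AGNACA match, 39 bases upstream of the start.
Msx2: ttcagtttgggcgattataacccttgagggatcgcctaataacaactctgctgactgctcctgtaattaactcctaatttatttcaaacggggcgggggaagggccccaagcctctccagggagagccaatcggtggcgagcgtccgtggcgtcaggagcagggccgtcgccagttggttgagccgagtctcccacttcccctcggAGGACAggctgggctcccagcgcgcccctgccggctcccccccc
The same window holds 3 matches to TAATT or its reverse complement AATTA, a core form bound by homeodomain proteins, including Msx proteins, but a TAATT and an AATTA among them overlap as a single site read on both strands. Of all windows 25.03% held at least 1. Hoxa5 and Hoxa9 each had 1 and Hoxa10, Hoxa11 and Msx1 had none.

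Msx2 signal at 4 h was 355, 533 and 408 in PRKO P4 uteri, against 252, 272 and 232 in WT P4 uteri. In vehicle uteri at 4 h it was 343, 484 and 459 in PRKO, against 234, 403 and 231 in WT uteri. The P4 groups did not overlap, as for 5.28% of probe sets in that direction, and in the vehicle groups replicate 2 of WT, the array of high Gapdh ratio, lay above the lowest PRKO array. At 40 h the signal was 368, 313 and 391 in PRKO P4 uteri, against 280.1, 203 and 212 in WT P4 uteri. In vehicle uteri at 40 h it was 397, 347 and 418 in PRKO, against 236, 291 and 291 in WT uteri. Neither pair overlapped at 40 h, which 11.5% of probe sets under P4 and 3.96% in vehicle uteri shared. Over all arrays, the 12 PRKO arrays ran from 313 to 533 with a median of 394, and the 12 WT arrays from 203 to 403 with a median of 244, so that 1 WT array reached the lowest PRKO array. At most 1 did so for 16 of the 12422 probe sets, or 0.129%.

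Taken 1 time and treatment at a time, the Msx2 difference did not pass. PRKO minus WT was 0.55 ± 0.17 at 4 h and 0.46 ± 0.17 at 40 h in vehicle uteri, with adjusted p of 0.463 and 1.00. Under P4 it was 0.69 ± 0.17 at 4 h and 0.57 ± 0.17 at 40 h, with adjusted p of 0.0534 and 0.0767. None of the 6 members passed in these 4 comparisons, in which 0.185%, 0.0644%, 1.22% and 2.59% of all probe sets did. Pooling both times and treatments, Msx2 was 0.57 ± 0.09 higher in PRKO than in WT uteri (interval 0.39 to 0.75), with an adjusted p of 0.000285. Msx2 was 1 of 2 members among 339 probe sets, 2.73%, that passed in that pooled comparison. It passed after each of the 24 removals of 1 array, at 0.53 to 0.63, and in the other 10 alternatives, at 0.52 to 0.64. Within vehicle uteri alone, the pooled value was 0.51 ± 0.12 with an adjusted p of 0.0752, where 0.443% of probe sets and no member passed, and without both arrays of high Gapdh ratio 0.62 with an adjusted p of 0.00786.

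With P4, Msx2 differed from vehicle by 0.01 ± 0.17 at 4 h and −0.11 ± 0.17 at 40 h in PRKO uteri, and by −0.14 ± 0.17 and −0.22 ± 0.17 in WT uteri. None passed, and the interval in WT uteri at 40 h ran from −0.58 to 0.14. Summed signal of 12 of 13 epithelium markers was 9587 to 10493 in PRKO vehicle and 11210.4 to 12487 in WT vehicle uteri at 40 h. Under P4 at 40 h it was 10387 to 10903 in PRKO and 10479 to 11671 in WT uteri. In the pooled genotype comparison 9 of the 12 markers were higher in PRKO uteri, with a median of 0.14 beside −0.01 over all probe sets, and 2 rose and 2 fell. Cldn3 was lower by 0.79 and Cldn4 by 0.51, and Tspan8 was higher by 0.41 and Krt8 by 0.27. Under P4 10 of 12 were higher in PRKO uteri at 4 h and 9 of 12 at 40 h, and in vehicle uteri 10 of 12 at 4 h and 3 of 12 at 40 h. Their part in the Msx2 difference was not tested.

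Msx1, the paralog of Msx2, was not higher in PRKO uteri. At 4 h Msx1 signal was 1823, 2679 and 2397 in PRKO P4 uteri, against 3096, 3901 and 2699 in WT P4 uteri. In vehicle uteri at 4 h it was 1907, 2770.4 and 2977 in PRKO, against 2126, 3513 and 2940.5 in WT uteri. The P4 groups did not overlap and the vehicle groups did, and replicate 2, of high Gapdh ratio, was the highest array of both WT groups. The P4 separation at 4 h was shared by 5.05% of probe sets in that direction. The difference under P4 at 4 h was −0.49 ± 0.18, with an adjusted p of 0.347. It passed with the replicate block at 0.0298, a fit in which 255 of the 12422 probe sets passed, against 152 without the block. Same-numbered arrays of this comparison did not all vary together, with correlations of −0.19 to 0.42. At 40 h all 4 groups lay between 1936 and 2729 and overlapped between genotypes. Over all arrays PRKO minus WT was −0.23 ± 0.09 (adjusted p 0.274), and −0.15 without both arrays of high Gapdh ratio. With the replicate block the difference over all arrays passed at an adjusted p of 0.0289, where 511 probe sets passed, against 339 without the block. With P4, Msx1 changed by at most 0.19 in size in any of the 4 comparisons, with standard errors of 0.18.

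**Figure D4:**
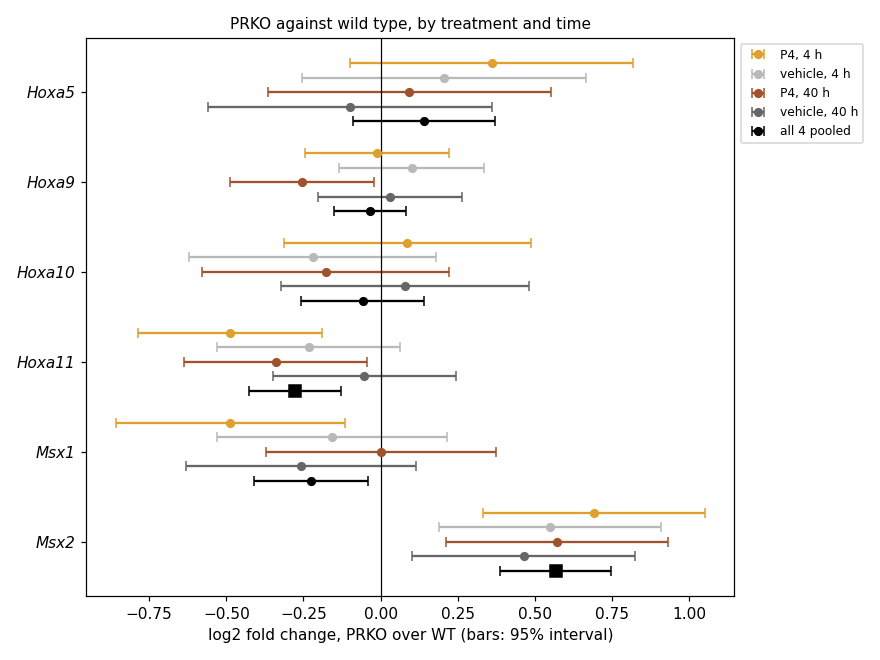
Log2 fold change of PRKO against WT for each of the 6 genes, by treatment and time and over all 4 combinations pooled, with 95% confidence intervals from limma. Large squares mark an adjusted p under 0.05, reached by Hoxa11 and Msx2 when pooled, and the 4 separate Msx2 estimates lie between 0.46 and 0.69, on the opposite side of 0 from Hoxa11.

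Hoxa11 signal was lower in PRKO than in WT uteri, by more under P4 than with vehicle, although the difference between these, given above as that of the P4 effects, did not pass. PRKO minus WT was −0.49 ± 0.14 at 4 h and −0.34 ± 0.14 at 40 h under P4, with adjusted p of 0.129 and 0.172, and −0.23 ± 0.14 and −0.05 ± 0.14 in vehicle uteri. Under P4 the genotypes did not overlap at either time, and in vehicle uteri they overlapped at both. Lower signal in PRKO P4 uteri without overlap was found in 5.05% of all probe sets at 4 h and 23.6% at 40 h, so the 40 h separation of Hoxa11, and that of Hoxa9 at −0.25 ± 0.11, was one that many probe sets showed. Pooled over all arrays Hoxa11 was −0.28 ± 0.07 (adjusted p 0.0347), the other member that passed. That call was lost on leaving out any of 14 single arrays, with adjusted p up to 0.0746. At 40 h these were all 3 replicates of PRKO vehicle and of WT P4, replicates 1 and 2 of PRKO P4 and replicate 3 of WT vehicle, and at 4 h replicate 1 of PRKO P4 and of PRKO vehicle, replicate 2 of WT P4 and replicates 2 and 3 of WT vehicle. The call was also lost, at 0.117, without both arrays of high Gapdh ratio. With the adipose covariate the value was −0.23 ± 0.08 and did not pass (adjusted p 0.266), in a fit where 194 probe sets passed. Of the 9 measured smooth muscle markers, none was higher in PRKO uteri in that pooled comparison, with a median of −0.12, and 2 fell (Myh11 and Tagln). In the same comparison 3 of 12 stroma markers were higher, with a median of −0.06, and the 1 that passed, Thy1, rose by 0.46. Of 8 macrophage markers 1 was higher, with a median of −0.09, and Cd14 fell by 0.39. Under P4 at 40 h 2 of 12 stroma markers and 1 of 9 smooth muscle markers fell and 4 of 10 adipose markers rose in PRKO uteri. Their part in the Hoxa11 difference was not tested.

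Between 4 h and 40 h no member passed in vehicle uteri, where 0% of probe sets did so in PRKO and 0.29% in WT uteri. In WT vehicle uteri Hoxa11 was −0.44 ± 0.14 at 40 h against 4 h (adjusted p 0.144), and −0.67 without replicate 1 of the 4 h group (adjusted p 0.0448). In PRKO vehicle uteri it was −0.26 ± 0.14 and the groups did not overlap, as for 8.06% of probe sets in that direction. Hoxa10 went the other way in PRKO vehicle uteri, at 0.43 ± 0.19 (adjusted p 0.416).

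Ordered by mean log2 signal, Hoxa11 was highest in WT P4 uteri at 4 h, then in WT P4 uteri at 40 h, and each of these groups lay apart from the next. The order continued through PRKO P4 at 4 h, WT vehicle at 4 h, PRKO P4 at 40 h, PRKO vehicle at 4 h, WT vehicle at 40 h and PRKO vehicle at 40 h, where neighbours overlapped. On the linear scale PRKO P4 at 4 h, with a mean of 1976, lies below WT vehicle at 4 h, with 1999.7, and the arrays of WT P4 at 40 h overlap those of WT vehicle at 4 h. Hoxa10 was highest in WT P4 and then PRKO P4 uteri at 40 h. The step from these 2 groups to the next, PRKO P4 at 4 h, was the 1 of 7 without overlap. Farther down the order, replicate 3 of WT P4 at 4 h, at 2076, lay above all PRKO P4 arrays at 40 h (1952 to 2043). It also lay above the lowest WT P4 array at 40 h (2019). Msx2 had all 4 PRKO groups above all 4 WT groups, with each neighbouring pair overlapping. For Hoxa5, Hoxa9 and Msx1 all 7 neighbouring pairs overlapped.

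Across the 8 group means, the members did not vary as one. The correlation was 0.34 between Hoxa10 and Hoxa11, 0.57 between Hoxa11 and Msx1, 0.62 between Hoxa5 and Msx2, and −0.43 between Msx1 and Msx2. These describe 8 points from shared arrays and carry no test. Among 7337 probe sets of other genes with a mean signal of at least 200, the nearest to Hoxa11 were Khdrbs1 (r = 0.953), Fuca1 (0.950) and Pdcd2 (0.947). Nearest to Hoxa10 were 1810009A15Rik (0.991), Nfyc (0.978) and Fstl1 (0.973). Nearest to Msx2 were Mycn (0.977), Ccnd1 (0.969), which encodes a cyclin of the G1 phase, and Mcm3 (0.960), a subunit of the replicative helicase. For Msx1 they were Hspb8 (0.978), Lgalsl (0.957) and Leprot (0.956), for Hoxa9 Grid1 (0.955), Gtse1 (0.947) and Csf2rb (0.943), and for Hoxa5 Pde4b (0.916), Pmm2 (0.912) and Sprr2g (0.903). With 8 points and so many probe sets searched, these values describe the patterns and no more.

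Genes that act with the members were read from 4 further lists. Of 7 measured genes listed as Hox cofactors (10 listed), a term for proteins that bind DNA together with Hox proteins, none passed in the 9 comparisons. The same held for 16 measured Msx relatives and other homeobox genes of the reproductive duct (19 listed) and for 11 measured genes linked to Msx in the uterus (13 listed). Wnt4, a signalling gene linked to Msx and decidualization, was at −0.29 in WT uteri at 40 h and did not pass. The median of the genes linked to Msx was −0.04 in that comparison. Of 5 measured genes reported to depend on Hoxa10 or Hoxa11 (7 listed), 1 passed. Ptger3, a prostaglandin E2 receptor gene whose stromal expression is reduced in mice lacking Hoxa10, rose by 1.33 ± 0.21 with P4 in WT uteri at 40 h (adjusted p 0.00102) and was at 0.25 in PRKO uteri. The difference between these effects was −1.08, with an adjusted p of 0.289. That probe set was itself dim, with a mean signal of 121, below the 200 used as a filter. A second, still dimmer probe set of Ptger3 gave 0.10 ± 0.08 in WT uteri, so the probe sets of this gene disagree. The median of the list was 0.02 in WT uteri at 40 h, beside 0.000798 over all probe sets.

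In the added genotype comparisons a few listed genes passed, of 66 measured when summed over 6 lists. Of all probe sets, 2.59% passed under P4 at 40 h and 2.73% over all arrays. Under P4 at 40 h PRKO minus WT was −0.93 for Ptger3, −0.32 for Igfbp1, a marker of decidual cells in humans, −0.33 for Dlx4 and 0.58 for Dlx5, a distal-less homeobox gene. The probe sets read for Ptger3 and Igfbp1 were dim, with mean signals of 121 and 134. Second probe sets gave −0.15 for Ptger3 and −0.15 for Igfbp1, and neither passed. Over all arrays the values were −0.16 for Hoxd8, 0.34 for Tgif1, 0.29 for Dlx5 and −0.36 for Fgf1. Tgif1 was on the cofactor list, and whether it acts with Hox proteins was not tested. A second probe set of Hoxd8 gave −0.02.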

How the data were processed

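Signal was measured on Affymetrix mouse arrays, 3 for each of 8 groups. The authors deposited linear signal intensity per probe set, and the submitters' processing notes name MAS5, with version, settings and between-array normalization not given in the sources used here. Of 12488 probe sets, 66 controls were left out. Arrays were multiplied by 0.954 to 1.03 to reach a mean of 500 after trimming 2% at each end, and log2 of the result plus 32 was used, which compresses changes of dim genes. Group means were fitted with limma 3.58.1 in R 4.3.3 with an intensity trend (16 residual and 4.98 prior degrees of freedom), with Benjamini-Hochberg adjustment over 12422 probe sets. The number of arrays limits the precision. The procedure was tested on simulated data.

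The members and lists were chosen with earlier results of these data known. Named besides the members were the 3 nearest genes of each by correlation over group means and the listed genes that passed, read on the brightest probe set. Pgr, the Hox genes at the ends of the stated ranges and Wnt4 were also named, whether or not they passed. Motifs were searched on both strands, and all 6 genes matched the RefSeq table by symbol.

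Replicate numbers carry no stated pairing. Same-numbered arrays correlated above 0.1 for every pair only in the WT 4 h comparison (0.114 to 0.516). The ranges were 0.0686 to 0.142 for P4 in WT at 40 h, −0.12 to 0.63 and 0.0668 to 0.481 for P4 in PRKO at 4 h and 40 h, 0.0365 to 0.599 and −0.0710 to 0.225 for PRKO against WT in vehicle, and −0.19 to 0.42 and −0.0625 to 0.249 under P4. Alternatives were other offsets, no scaling, quantile normalization, no trend, a filter at a mean signal of 200, the replicate block, an adipose covariate, fewer groups in the fit, and leaving out arrays.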

Additional observations from a re-analysis of the deposited data

How the results depend on the processing

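Of 2412 alternative values of 114 member results, 2359 stayed on their side of the threshold and none that passed changed sign, while 24 lost and 29 gained a call. Signs changed in 101 values over 39 results, none of which passed either way, and whose reported size was at most 0.23. The same-time and compared-group fits hold fewer arrays. For Msx2 under P4 at 40 h PRKO minus WT was 0.57 in the main fit, with the replicate block and with arrays of the same time. Its standard errors were 0.17, 0.13 and 0.12 in that order. Counts of members that passed moved as follows, and the cause was not tested. For P4 in WT at 4 h the count was 0, and 1 with the replicate block, with 0 to 1 over single arrays. For P4 in WT at 40 h it was 1, and 2 with the replicate block (Hoxa10 at an adjusted p of 0.0325), 2 with arrays of the same time, 2 with the compared groups only, 0 with the adipose covariate, and 0 to 1 over single arrays. For PRKO against WT under P4 at 4 h it was 0, and 1 with the filter on dim signal, 3 with the replicate block, 1 without both arrays of high Gapdh ratio, and 0 to 1 over single arrays. Under P4 at 40 h it was 0, and 1 with the block, 1 without those arrays, 2 with arrays of the same time and 1 with the compared groups only. For 40 h against 4 h in WT vehicle it was 0, and 0 to 1 over single arrays. Pooled over times, P4 in WT gave 1, and 2 with the block, 0 with the adipose covariate, and 1 to 2 over single arrays. Pooled over genotypes too, P4 gave 1, and 2 with the filter, 2 with the block, 0 with the adipose covariate, and 1 to 2 over single arrays. PRKO against WT in vehicle, times pooled, gave 0, and 1 with the block, 1 without the arrays of high Gapdh ratio, and 0 to 1 over single arrays. Over all arrays it gave 2, and 3 with the block (Msx1 added), 1 with the adipose covariate, 1 without those arrays, and 1 to 2 over single arrays. Calls over all probe sets moved with most of these settings. For P4 in WT at 40 h they were 191, and 386 with the block, 539 with arrays of the same time and 0 with the adipose covariate. For PRKO against WT under P4 at 40 h they were 322, and 858, 1147 and 12 in that order, with 637 without both arrays of high Gapdh ratio. At 4 h the block took P4 in WT from 88 to 128, and PRKO against WT under P4 from 152 to 255. Pooled over times it took P4 in WT from 163 to 346, and PRKO against WT in vehicle from 55 to 115. Over all arrays it took P4 from 73 to 133, and PRKO against WT from 339 to 511. With the adipose covariate P4 in WT over both times gave 2, P4 over all arrays 0 and PRKO against WT over all arrays 194. Without both arrays of high Gapdh ratio PRKO against WT under P4 at 4 h gave 111. Without those arrays PRKO against WT in vehicle over both times gave 73, and over all arrays 339, the same as with them. With the filter 121 of 8173 passed for PRKO against WT under P4 at 4 h, and 68 for P4 over all arrays. With the compared groups only, at 40 h, P4 in WT gave 212 and PRKO against WT under P4 gave 546. The block could not be fitted for 40 h against 4 h, where replicate numbers belong to a time. With 3 arrays a group, the standard error of a member's change between 2 groups was 0.11 to 0.22 on the log2 scale.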
